A study of Mus musculus with 6 samples.

Results

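The genes described here encode the contractile apparatus of smooth muscle cells and myofibroblasts: 2 actins (Acta2, Actg2), the myosin regulatory light chain Myl9, transgelin (Tagln), 2 calponins (Cnn1, Cnn2), 3 tropomyosins (Tpm1, Tpm2, Tpm4) and desmin (Des). They were chosen by symbol, 10 of the 35727 Ensembl genes in the deposited table, and all 10 were among the 12819 genes with enough counts to be tested. Expression was measured by poly(A) RNA sequencing in mouse undifferentiated pleomorphic sarcoma cells, which were sorted for a red fluorescent protein out of transplanted tumours. The 3 shPostn libraries come from cells given a viral hairpin against Postn, the periostin gene, and the 3 shSCR libraries from cells given a scrambled hairpin. Both share 1 parental line of p53-deficient C57/Bl6 mesenchymal stem cells that overexpresses Ccne1 with the red tracer and had been passaged through wild-type mice. Sample titles name the groups Postn-KO and Postn-WT although the protocol describes a hairpin, and they mention no further hairpin and no age of the host mice. Whether libraries of a group stem from separate tumours is not stated, so p-values measure only the spread between these samples, which may be technical, and a difference between the lines cannot be told apart from one made by the hairpin's target.

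Smooth muscle cells shorten when phosphorylated myosin pulls on actin filaments, and calponins, transgelin and tropomyosins bind along those filaments and tune their stability and their contact with myosin. Desmin forms the intermediate filaments that tie the apparatus together in muscle. Fibroblasts that turn into myofibroblasts, as they do in wounds and in tumour stroma, switch on many of these genes, with Acta2 as the usual marker, and serum response factor (SRF) with its cofactors of the myocardin family is a known activator of them.

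Postn, the hairpin's target, measured 217, 471 and 639 CPM (counts scaled to 1000000 per library with TMM factors) in shPostn replicates 1, 2 and 3, against 4097, 3602 and 3225 CPM in shSCR replicates 1, 2 and 3, which goes with the labels. In shPostn cells, 4 of the 10 genes rose (Tagln, Myl9, Cnn2 and Tpm2) and Des fell, in edgeR's quasi-likelihood test with Benjamini-Hochberg adjustment over all genes tested. Of all tested genes 10.1% were called by that rule, 4.61% rising and 5.53% falling. Acta2, Actg2 and Cnn1 averaged over 2-fold higher in shPostn without passing the test, and Tpm1 and Tpm4 were close to equal in both groups. The median log2 fold change (shPostn minus shSCR) of the 10 genes was 0.89, against 0.01 over all tested genes. At 6 of the 10 genes every shPostn library was above every shSCR library, as at 16.6% of all tested genes, and at 1 every shPostn library was below, as at 17.0%. The calls were sensitive to single libraries. Of the 10 genes 4, 6 and 4 passed without shPostn replicates 1, 2 and 3, in fits that called 7.23%, 4.89% and 17.1% of all genes, and 1, 0 and 1 passed without shSCR replicates 1, 2 and 3, where 3.30%, 2.36% and 3.10% of all genes were called. All 10 log2 fold changes kept their sign in those fits. DESeq2 called 8 of the 10 (15.4% of all genes) and limma-voom 4 (10.2% of all genes); without shSCR replicate 2, where edgeR called 0 of the 10, 8 of them had an unadjusted p under 0.05, as had 18.8% of all genes.

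**Figure D1:**
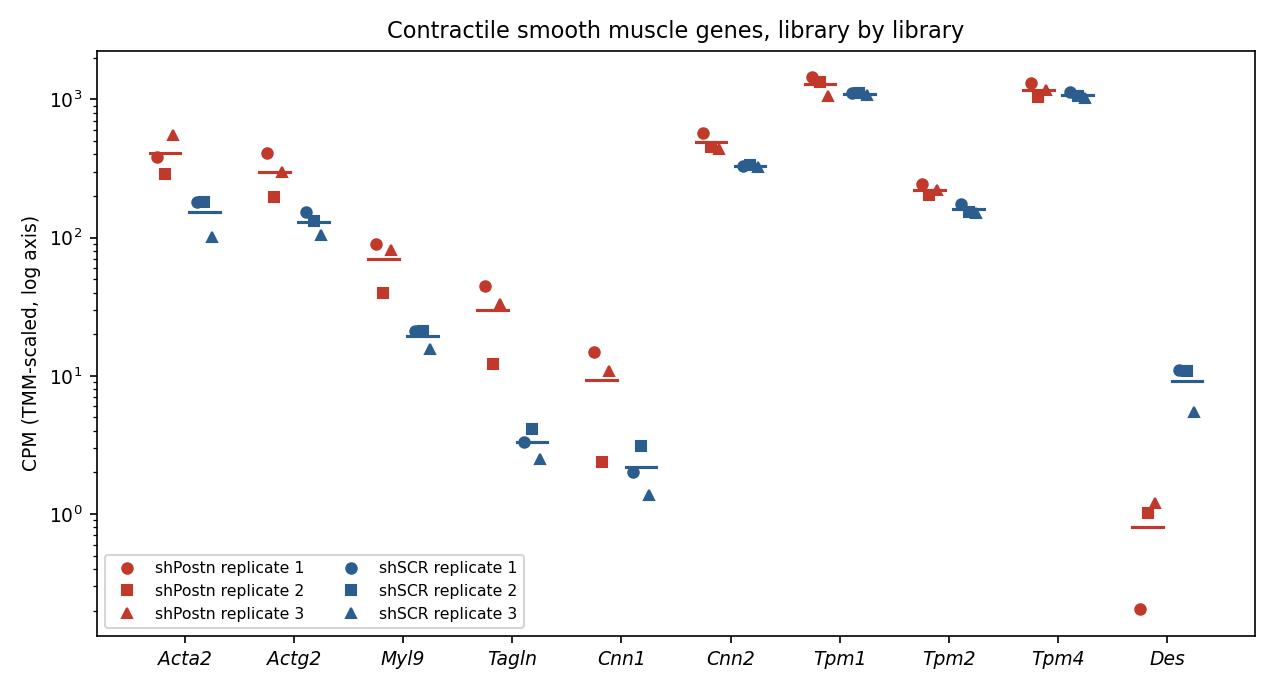
Expression of the 10 contractile genes in each library, in CPM (log axis); shPostn libraries are red and stand left of the blue shSCR libraries, marker shapes give the replicate and lines the group means. Tagln lies between 12.1 and 45.0 CPM in shPostn and between 2.49 and 4.15 CPM in shSCR, while Des runs the other way.

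The smooth muscle actins were more abundant in every shPostn library than in any shSCR library. Acta2, the alpha actin that marks myofibroblasts (ENSMUSG00000035783; GRCm38 chromosome 19, 34241090 to 34255590, minus strand), measured 383, 287 and 549 CPM in shPostn replicates 1, 2 and 3, against 181, 180.0 and 100.4 CPM in shSCR replicates 1, 2 and 3. It averaged 406 ± 133 CPM in shPostn and 154 ± 46.1 CPM in shSCR (SD, n = 3 each), and the edgeR log2 fold change was 1.40 (standard error, SE, 0.33; adjusted p = 0.0557). Actg2, the gamma actin of visceral smooth muscle (ENSMUSG00000059430; chromosome 6, 83512905 to 83536265, minus strand), measured 407, 198 and 296 CPM in shPostn, against 153, 132 and 105 CPM in shSCR. Its log2 fold change was 1.21 (SE 0.29) with an edgeR adjusted p of 0.0553. Both differences were larger than those of Cnn2 and Tpm2, which passed. The shPostn libraries spread over 1.92-fold for Acta2 and 2.06-fold for Actg2, and the shSCR libraries over 1.80-fold and 1.45-fold. For Tagln and Myl9, which passed, the shPostn libraries spread over 3.72-fold and 2.28-fold. Why the actins did not pass was not tested. DESeq2 called both (adjusted p = 0.00218 for Acta2 and 8.52e-06 for Actg2). The coding sequences of actins are similar, and how the authors' estimates divided any reads shared between them cannot be read from gene counts.

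Myl9, the regulatory light chain whose phosphorylation starts smooth muscle contraction (ENSMUSG00000067818; chromosome 2, 156775420 to 156781658, plus strand), rose. It measured 89.7, 39.4 and 81.5 CPM in shPostn, against 21.1, 21.1 and 15.7 CPM in shSCR, with no overlap between the groups. The means were 70.2 ± 27.0 CPM in shPostn and 19.3 ± 3.13 CPM in shSCR (SD over 3 libraries each), and the log2 fold change was 1.86 (SE 0.34, edgeR adjusted p = 0.0287). The call held without shPostn replicate 2 and was lost without any other single library, with adjusted p between 0.0604 and 0.109. The log2 fold change stayed between 1.65 and 2.15.

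Tagln, which encodes the actin-bundling protein transgelin (ENSMUSG00000032085; chromosome 9, 45929619 to 45936058, minus strand), rose by the highest factor of the 10. It measured 45.0, 12.1 and 33.1 CPM in shPostn, against 3.35, 4.15 and 2.49 CPM in shSCR. Even the lowest shPostn library, replicate 2, was above every shSCR library. The means were 30.1 ± 16.7 CPM in shPostn and 3.33 ± 0.833 CPM in shSCR (SD over 3 libraries each), and the log2 fold change was 3.17 (SE 0.55, edgeR adjusted p = 0.0264). Summed over libraries there were 1779 counts in shPostn and 202 in shSCR, a ratio of 8.98 with a 95% exact Clopper-Pearson interval of 7.76 to 10.4, which covers counting error only. Without shPostn replicate 3 the adjusted p was 0.063, and it was 0.104, 0.0946 and 0.105 without shSCR replicates 1, 2 and 3. Pcsk7, a proprotein convertase gene, overlaps the span of Tagln on the opposite strand; it had 606 to 697 counts per shPostn library and 635 to 701 per shSCR library.

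The calponins, which bind actin and restrain myosin, differed in both level and spread. Cnn2, the calponin of many nonmuscle cells (ENSMUSG00000004665; chromosome 10, 79988584 to 79996062, plus strand), measured 574, 453 and 439 CPM in shPostn, against 332, 334 and 327 CPM in shSCR, and rose (log2 fold change 0.56, SE 0.11, edgeR adjusted p = 0.0224). Its 3 shSCR libraries lay within 1.02-fold of each other. Cnn1, the calponin of differentiated smooth muscle (ENSMUSG00000001349; chromosome 9, 22099216 to 22109630, plus strand), had 14.8, 2.38 and 10.8 CPM in shPostn, against 2.02, 3.13 and 1.37 CPM in shSCR. Replicates 1 and 3 of shPostn were above all shSCR libraries, while replicate 2 lay inside the shSCR range. The log2 fold change of Cnn1 was 2.10 (SE 0.70) with an edgeR adjusted p of 0.121, and without shPostn replicate 2 it was 2.56 (adjusted p = 0.0232). Summed counts were 552 in shPostn and 132 in shSCR, a ratio of 4.27 (95% exact interval 3.52 to 5.20, counting error only). For Cnn2 the adjusted p was 0.0833, 0.103 and 0.0926 without shSCR replicates 1, 2 and 3.

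Tropomyosins, the coiled coils that lie along actin filaments, had the 3 smallest log2 fold changes of the 10 genes. Tpm2, the beta tropomyosin that is abundant in smooth muscle (ENSMUSG00000028464; chromosome 4, 43514711 to 43523765, minus strand; the 780 tested genes of that chromosome had a median log2 fold change of −0.15), measured 243, 202 and 222 CPM in shPostn, against 175, 154 and 152 CPM in shSCR. It rose with a log2 fold change of 0.47 (SE 0.09, edgeR adjusted p = 0.0224); without shSCR replicate 2 the adjusted p was 0.109 and without shSCR replicate 3 it was 0.0946. Tpm1, the alpha tropomyosin (ENSMUSG00000032366; chromosome 9, 67022590 to 67049406, minus strand), measured 1444, 1339.9 and 1062 CPM in shPostn, against 1116, 1109 and 1069.6 CPM in shSCR. Replicate 3 of shPostn was the lowest of the 6 libraries, and the log2 fold change was 0.22 (SE 0.12, edgeR adjusted p = 0.277). Without that library it was 0.34 (adjusted p = 0.018). Tpm4, which is also widespread outside muscle (ENSMUSG00000031799; chromosome 8, 72134975 to 72153142, plus strand), measured 1320.4, 1034 and 1174 CPM in shPostn, against 1126, 1059 and 1029.8 CPM in shSCR. Its groups overlapped and its log2 fold change was 0.13 (SE 0.10, edgeR adjusted p = 0.45). Each of these genes makes several transcripts with different exons in muscle and other cells, which counts per gene add up.

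Desmin went the other way. Des, the intermediate filament gene of muscle and of some mural cells (ENSMUSG00000026208; chromosome 1, 75360329 to 75368579, plus strand), had 0.205, 1.01 and 1.20 CPM in shPostn, against 11.0, 10.8 and 5.48 CPM in shSCR. These are 4, 20 and 24 counts in shPostn and 223, 222 and 108 counts in shSCR. Every shPostn library was below every shSCR library, and Des fell with a log2 fold change of −3.49 (SE 0.60, edgeR adjusted p = 0.02). The summed counts of 48 in shPostn and 553 in shSCR give a ratio, shSCR over shPostn, of 11.3 (95% exact interval 8.40 to 15.5, counting error only). The adjusted p was 0.0587 without shPostn replicate 2, 0.0696 without shSCR replicate 1 and 0.0871 without shSCR replicate 2. In bulk libraries, fewer cells that express a gene and less RNA per cell cannot be told apart, for Des as for the genes that rose.

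**Figure D2:**
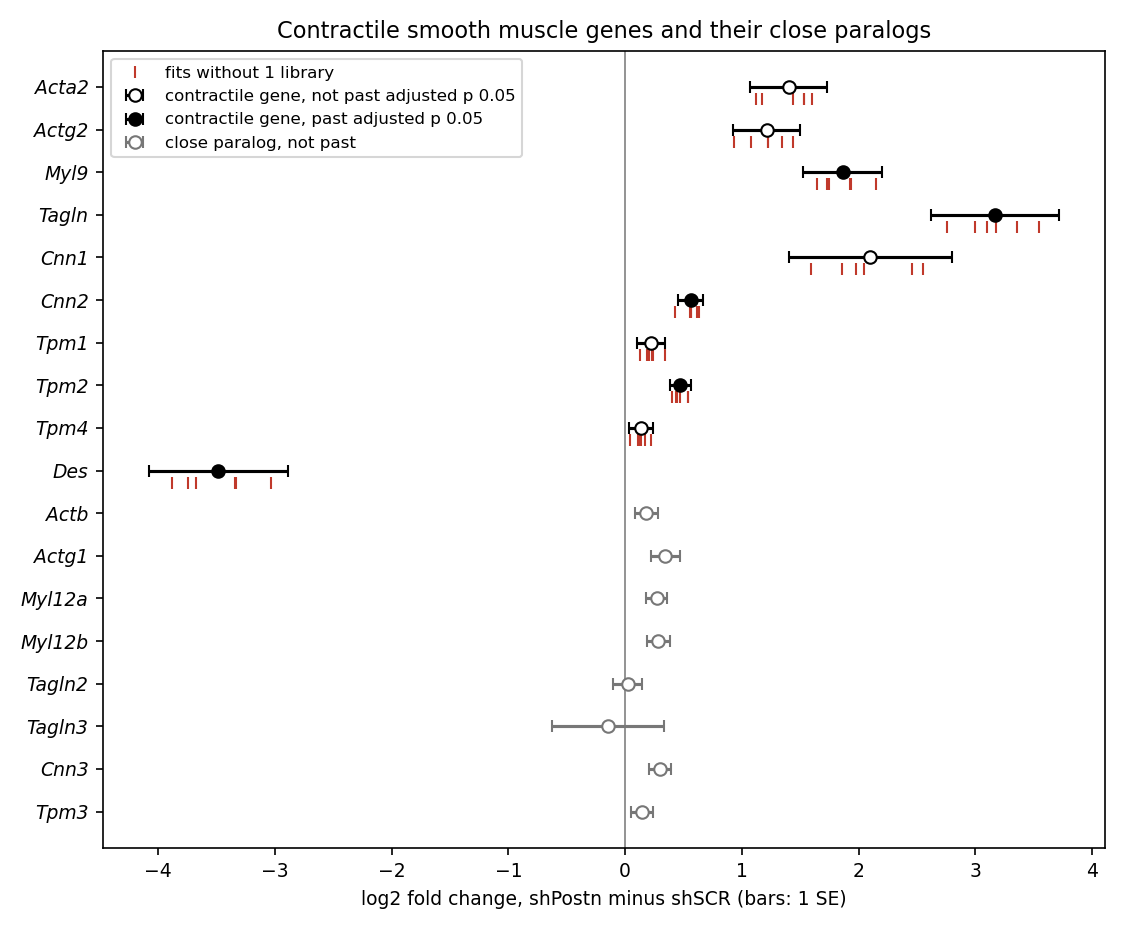
Log2 fold changes, shPostn minus shSCR, with bars of 1 SE, for the 10 contractile genes (black; filled where the edgeR adjusted p passed 0.05) and 8 close paralogs (grey); red ticks, drawn for the contractile genes, are the fits with 1 library left out. Tagln at 3.17 and Des at −3.49 lie farthest from 0, the ticks of each contractile gene stay on 1 side of 0, and no paralog passed.

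Upstream sequence is shown for 3 genes, Myl9 and Cnn2 because they rose and hold the CArG box, and Acta2 because it holds variants of it. The CArG box is the DNA motif that SRF binds, a run of A or T between a pair of C and a pair of G; its pattern reads alike on both strands. RefSeq's table for GRCm38.p6 held a promoter for 8 of the 10 genes, all but Tagln and Actg2, and the 250 bases before the start that RefSeq annotates were searched. That start often lies downstream of the outermost start of the GENCODE spans given above, so that 217 of the 250 bases for Acta2, 44 for Myl9, 16 for Cnn2, 37 for Cnn1, 193 for Tpm1, 211 for Tpm2, 250 for Tpm4 and 0 for Des fall inside the span of the gene. The windows are chr2:156775214-156775463 (plus strand) for Myl9, chr10:79988350-79988599 (plus strand) for Cnn2 and chr19:34255374-34255623 (minus strand) for Acta2, written 5′ to 3′ on the strand of the gene. Capitals mark CArG boxes with at most 1 mismatch and, in Acta2, the MCAT element (CATTCC on either strand), the motif of TEAD factors.
Myl9: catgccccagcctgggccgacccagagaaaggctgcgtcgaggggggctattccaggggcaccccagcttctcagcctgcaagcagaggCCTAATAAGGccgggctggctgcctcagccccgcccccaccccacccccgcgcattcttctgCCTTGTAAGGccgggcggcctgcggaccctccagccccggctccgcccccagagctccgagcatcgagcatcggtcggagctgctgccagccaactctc
Cnn2: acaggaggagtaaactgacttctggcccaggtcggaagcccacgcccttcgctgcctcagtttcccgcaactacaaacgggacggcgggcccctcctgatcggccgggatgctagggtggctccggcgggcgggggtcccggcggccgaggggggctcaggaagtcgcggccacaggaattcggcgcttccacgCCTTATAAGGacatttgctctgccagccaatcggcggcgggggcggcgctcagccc
Acta2: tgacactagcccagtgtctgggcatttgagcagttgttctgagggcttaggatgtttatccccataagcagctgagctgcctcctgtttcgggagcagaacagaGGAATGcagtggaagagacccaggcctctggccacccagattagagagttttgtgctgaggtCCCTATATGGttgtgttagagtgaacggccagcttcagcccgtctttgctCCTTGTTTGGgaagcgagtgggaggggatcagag
Counted from the RefSeq start, Myl9 held 1 exact CArG box 161 to 152 bases before it (CCTAATAAGG) and 1 with a mismatch 99 to 90 bases before it (CCTTGTAAGG). Cnn2 held 1 exact box 56 to 47 bases before its start (CCTTATAAGG). Acta2 held 2 boxes with 1 mismatch, at 84 to 75 (CCCTATATGG) and 34 to 25 bases (CCTTGTTTGG), and 1 MCAT element, all of them inside the GENCODE span of the gene. An exact CArG box was present in 2 of the 8 promoters and in 1.47% of all 32851 promoter windows of that length. With up to 1 mismatch it was present in 4 of the 8, Tpm1 being the fourth, and in 18.6% of all windows; the MCAT element was in 2 of the 8, Acta2 and Tpm1, and in 12.6% of all windows. Tpm2, which rose, Des, which fell, Cnn1 and Tpm4 held neither motif in these windows. A match is a description of the letters and shows no binding.

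Levels of different genes were set side by side per kilobase of merged exons, a scale that understates genes with many alternative exons such as Tpm1. On that scale Tpm4 had the highest level in both groups, with 534 ± 64.9 CPM per kb in shPostn and 486 ± 22.5 in shSCR (SD, n = 3 each). In shPostn, Cnn2 (199), Tpm1 (198), Actg2 (193) and Acta2 (185 CPM per kb) followed, and the library values of neighbours in this order overlapped. Tpm2 (76.4) and Myl9 (60.4) also overlapped there, and Tagln (15.1), Cnn1 (3.41) and Des (0.214 CPM per kb) came below, each clear of its neighbours. In shSCR the order after Tpm4 was Tpm1 (169), Cnn2 (135), Actg2 (83.3), Acta2 (70.0), Tpm2 (55.1), Myl9 (16.6), Des (2.42), Tagln (1.67) and Cnn1 (0.794 CPM per kb). There Actg2 overlapped with Acta2, Acta2 with Tpm2 and Des with Tagln. Des thus ranked 10 of 10 in shPostn and 8 of 10 in shSCR.

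Shares within protein families show how small or large the contractile form was beside its relatives, again per kb of exon. Acta2 made up 6.14%, 6.24% and 10.3% of the actins in the shPostn libraries, against 4.27%, 4.24% and 2.65% in the shSCR libraries, and Actg2 9.21%, 6.07% and 7.87% in shPostn, against 5.09%, 4.37% and 3.91% in shSCR. The cytoplasmic actins Actb and Actg1 held most of the remainder in both groups. Myl9 made up 23.1%, 13.9% and 23.9% of the regulatory light chains in shPostn, against 8.16%, 9.0% and 6.97% in shSCR, beside its ubiquitous relatives Myl12a and Myl12b. Merged exons span 3360 bases in Myl12a, 1201 in Myl12b and 1162 in Myl9, so the size of these shares depends on that scale. Myl12a and Myl12b overlap on the same strand, and how any shared reads were divided cannot be read from gene counts. Tagln made up 11.2%, 4.53% and 9.29% of the transgelins in shPostn, against 1.02%, 1.39% and 0.820% in shSCR, the rest being nearly all Tagln2. Cnn1 made up 1.23%, 0.226% and 1.13% of the calponins in shPostn, against 0.264%, 0.391% and 0.170% in shSCR, so that shPostn replicate 2 lay inside the shSCR range. These shares did not overlap between the groups for Acta2, Actg2, Myl9 and Tagln. Tropomyosin shares moved less: Tpm2 held 8.20%, 8.16% and 8.88% in shPostn, against 7.19%, 6.63% and 6.73% in shSCR, also without overlap. Cnn2 held 53.1%, 48.0% and 51.0% of the calponins in shPostn, against 48.3%, 46.5% and 45.0% in shSCR, with overlap. Shares were compared as values, without a test.

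**Figure D3:**
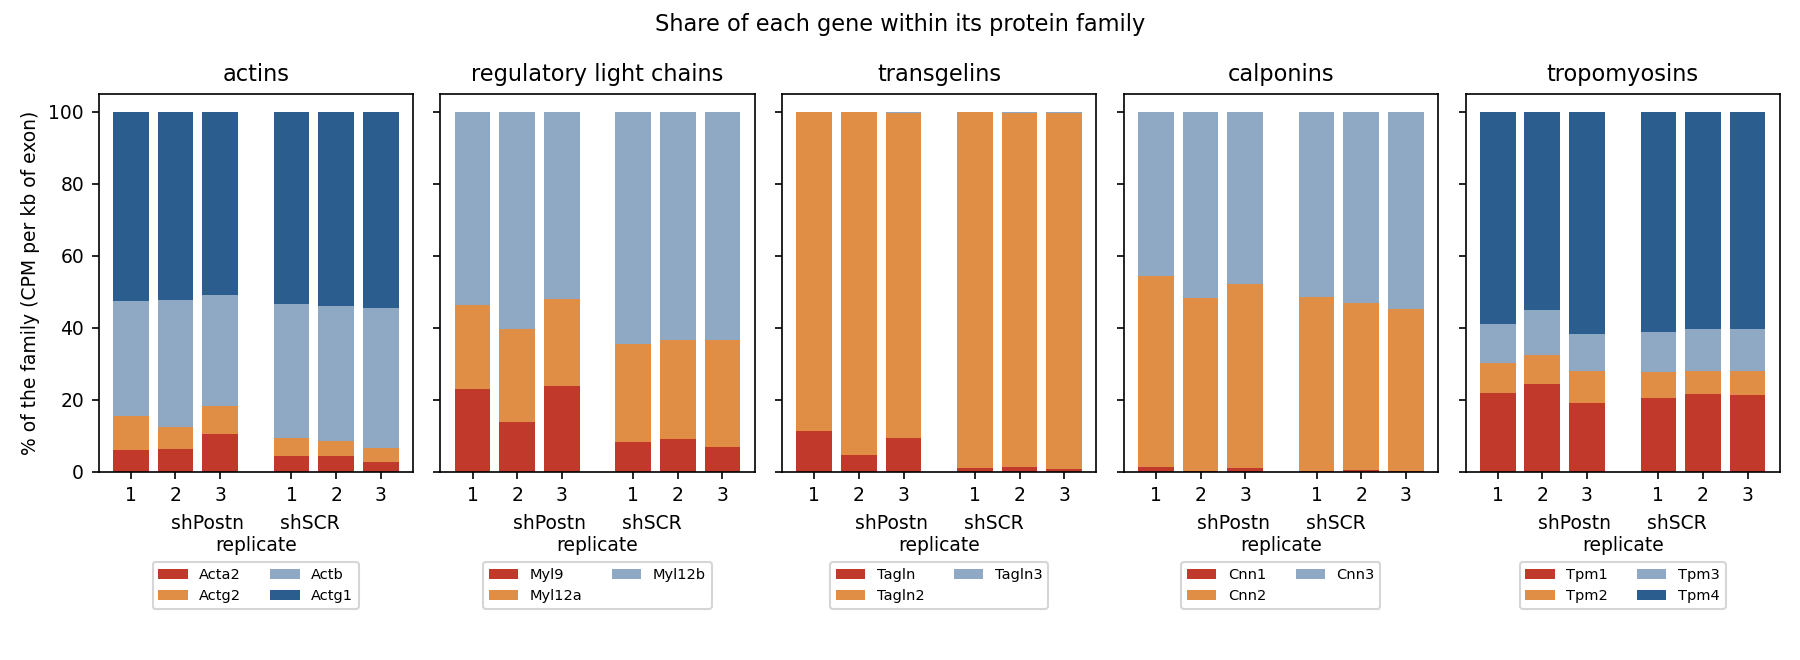
Share of each gene within its protein family in each library, in percent of the family's summed CPM per kb of exon; in each panel the 3 shPostn libraries are left of the 3 shSCR libraries, and genes under 0.1% in all libraries are not drawn. Myl9 holds 13.9% to 23.9% of the regulatory light chains in shPostn and 6.97% to 9.0% in shSCR.

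The close paralogs did not pass the test. Of 10 paralogs listed, 8 were tested and 0 were called by edgeR, while 4 had an unadjusted p under 0.05 (27.0% of all genes). DESeq2 called 4 (15.4% of all genes) and limma-voom 0 (10.2%). At 5 of the 8 every shPostn library was above every shSCR library, as at 16.6% of all tested genes. At 0 of them every shPostn library was below, as at 17.0%. Actg1 measured 3981, 2911 and 3274 CPM in shPostn, against 2738, 2766 and 2502 CPM in shSCR (log2 fold change 0.34, SE 0.13, edgeR adjusted p = 0.132), and Actb had a log2 fold change of 0.18 (SE 0.10). The paralogs' median log2 fold change was 0.23. The striated muscle actins were at or near 0, with 0 counts for Actc1 in all 6 libraries and at most 0.257 CPM for Acta1.

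Of 15 further smooth muscle genes 9 were tested, of which 2 rose and 0 fell by the edgeR rule that called 10.1% of all genes; their median log2 fold change was 0.30. Synpo2, which encodes the actin-binding muscle protein synaptopodin 2, measured 23.5, 18.2 and 15.7 CPM in shPostn, against 7.92, 9.33 and 9.64 CPM in shSCR (log2 fold change 1.09, SE 0.17, edgeR adjusted p = 0.0104). Smtn, smoothelin, measured 185, 199 and 232 CPM in shPostn, against 163, 156 and 161 CPM in shSCR (log2 fold change 0.36, edgeR adjusted p = 0.0483). Smtn passed only without shPostn replicate 1 or 3 among the fits with 1 library left out (highest adjusted p 0.18), and Synpo2 in all of them but the one without shSCR replicate 2 (adjusted p = 0.0578). Mylk, the kinase that phosphorylates Myl9, was picked out after its values were seen: it had 4.16, 19.6 and 10.5 CPM in shPostn, against 37.0, 63.0 and 42.7 CPM in shSCR, with no overlap and a log2 fold change of −2.06 (SE 0.56, edgeR adjusted p = 0.0829). DESeq2 called 7 of the 9 (15.4% of all genes), Mylk among them (adjusted p = 0.0115), and 7 had an unadjusted p under 0.05 in edgeR (27.0% of all genes). Levels differed widely within the list. Cald1, the actin-binding protein caldesmon, averaged 655 ± 34.2 CPM in shPostn and 531 ± 49.2 CPM in shSCR (SD, n = 3 each; log2 fold change 0.30, SE 0.09, edgeR adjusted p = 0.0736). The 6 genes that were not tested had few counts, among them Myh11 (the smooth muscle myosin heavy chain) with at most 0.0505 CPM in shPostn and 0.152 CPM in shSCR, and Lmod1 with at most 0.0513 CPM in shPostn and 0.0489 CPM in shSCR.

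Among 12 genes that anchor or crosslink actin filaments 3 rose and 1 fell (10.1% of all genes were called), with a median log2 fold change of 0.27; DESeq2 called 7 (15.4% of all genes). Actn1, alpha actinin 1, measured 827, 713 and 635 CPM in shPostn, against 441, 433 and 438 CPM in shSCR (log2 fold change 0.73, SE 0.10, edgeR adjusted p = 0.00823); it lies on chromosome 12, where the median log2 fold change of 468 tested genes was 0.39. Lpp, a focal adhesion LIM protein, rose (0.47, SE 0.08), as did vinculin, Vcl (0.42, SE 0.08). Tns1, tensin 1, which links integrins to actin, measured 184, 189 and 183 CPM in shPostn, against 256, 252 and 244 CPM in shSCR, and fell (−0.44, SE 0.06, edgeR adjusted p = 0.00663), also with any 1 library left out. Actn1 lost its call without shSCR replicate 2 (adjusted p = 0.0553) and Lpp without any 1 of the shSCR libraries (adjusted p between 0.0608 and 0.0819).

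Of the regulators, SRF's cofactor gene Mrtfa rose, 1 of 10 tested genes of SRF, its cofactors and counterparts, a share close to that of all genes (10.1%). Mrtfa measured 82.7, 79.6 and 72.0 CPM in shPostn, against 55.7, 58.7 and 59.7 CPM in shSCR (log2 fold change 0.43, SE 0.07, edgeR adjusted p = 0.0134), and its adjusted p was 0.063, 0.0656 and 0.0538 without shSCR replicates 1, 2 and 3. Srf itself measured 118, 85.7 and 83.4 CPM in shPostn, against 77.9, 77.2 and 72.4 CPM in shSCR (0.33, SE 0.14, edgeR adjusted p = 0.171). Myocd, the myocardin gene that drives the smooth muscle programme, had 0 counts in all 6 libraries. Of 10 genes of RHOA signalling and myosin phosphorylation 2 rose and 1 fell, against 4.61% rising and 5.53% falling of all tested genes. Rock1 and Rock2, which encode protein kinases, differed in direction, Rock2 rising (0.38, SE 0.09, edgeR adjusted p = 0.0438) and Rock1 falling (−0.30, SE 0.07, edgeR adjusted p = 0.0326), and the myosin kinase gene Dapk3 rose (0.30, SE 0.07, edgeR adjusted p = 0.0449). Rock2 lies on chromosome 12 and Rock1 on chromosome 18, whose 343 tested genes had a median log2 fold change of −0.45. All of these kinase calls were lost without shPostn replicate 2 or any 1 shSCR library, with edgeR adjusted p between 0.0578 and 0.177, and those of Rock2 and Dapk3 also without shPostn replicate 1 (0.0848 for Rock2 and 0.0693 for Dapk3). Among 5 tested intermediate filament genes beside Des edgeR called 0 (10.1% of all genes) and limma-voom 0 (10.2%). DESeq2 called 2 (15.4% of all genes), and 2 had an unadjusted edgeR p under 0.05 (27.0%). Vim, the vimentin of mesenchymal cells, measured 4394, 4133 and 4095 CPM in shPostn, against 3688, 3059 and 3396 CPM in shSCR (log2 fold change 0.32, SE 0.10, edgeR adjusted p = 0.0845).

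**Figure D4:**
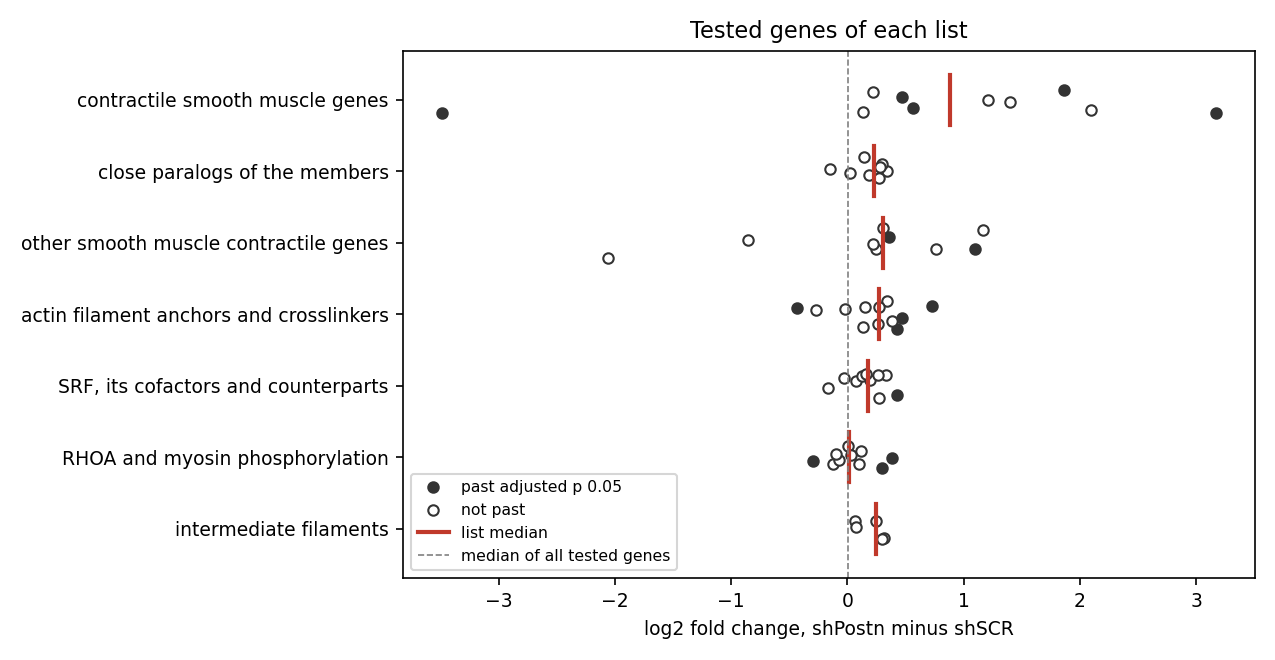
Log2 fold changes, shPostn minus shSCR, of the tested genes of each list of pathway or protein class (1 point per gene, filled where the edgeR adjusted p passed 0.05); red bars are list medians and the dashed line is the median of all tested genes. The contractile genes reach from −3.49 to 3.17 with a median of 0.89, and the other 6 lists drawn have medians between 0.01 and 0.30.

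Other genes had profiles close to those of Tagln, Myl9 and Des over the 6 libraries, measured as the mean absolute difference of centred log2(CPM + 1) values, where 0 is an identical profile. For Tagln the closest of 11436 genes were Sorcs2 (0.47), Myl9 (0.47) and Arl6ip1 (0.49), so another contractile gene was among the first 3. Sorcs2, a sorting receptor of the sortilin family, measured 56.9, 40.9 and 35.5 CPM in shPostn, against 8.41, 10.3 and 6.85 CPM in shSCR. For Myl9 they were the tetraspanin gene Tspan2 (0.20), Sobp (0.22) and Fam110c (0.25). Tspan2 measured 4.21, 1.47 and 7.19 CPM in shPostn, against 0.738, 0.635 and 0.254 CPM in shSCR (log2 fold change 2.97, SE 0.67). At such low levels the added 1 shrinks differences, so its match with Myl9 is not one of fold changes. For Des they were the nuclear receptor gene Nr5a1 (0.20), Tmem176b (0.21) and the adrenomedullin 2 gene Adm2 (0.21). Their log2 fold changes were −4.07, −2.21 and −3.74, against −3.49 for Des, whose own low level the added 1 also affects. Nr5a1 measured 0.103, 0.556 and 0.549 CPM in shPostn, against 6.05, 9.97 and 4.67 CPM in shSCR.

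The contractile genes varied more among shPostn than among shSCR libraries, with a larger coefficient of variation in shPostn for 10 of 10 genes, as for 69.4% of all tested genes. It ranged from 9.14% for Tpm2 to 68.1% for Cnn1 in shPostn and from 1.13% for Cnn2 to 40.9% for Cnn1 in shSCR. Replicate 1 held the highest shPostn value for 8 of the 10 genes and replicate 2 the lowest for 7. Replicate 3 held the lowest shSCR value for 10 of 10, the falling Des included. How often these libraries were highest or lowest over all tested genes was not computed. Summed over the 10 genes the libraries had 4522, 3568 and 3868 CPM in shPostn, against 3119.9, 3007 and 2809 CPM in shSCR.

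The libraries held between 19603269 and 20376554 counts. Of 12 leukocyte markers 11 were tested, and edgeR (10.1% of all genes), DESeq2 (15.4%) and limma-voom (10.2%) called 0 of them. An unadjusted edgeR p under 0.05 was found for 0 (27.0% of all genes). Their median log2 fold change was 1.30, so the lack of calls does not mean equal levels. The 12 markers summed to 113, 45.6 and 754 CPM in shPostn, against 174, 132 and 64.1 CPM in shSCR, so shPostn replicate 3 stood apart. Without that library Cnn2, Tpm1, Tpm2 and Des passed the test, and Tagln (log2 fold change 3.10, edgeR adjusted p = 0.063) and Myl9 (1.74, edgeR adjusted p = 0.0695) did not. Over all libraries the log2 fold changes were 3.17 for Tagln and 1.86 for Myl9. Acta2, which was highest in that library, had 1.12 without it and 1.40 over all libraries. The median of the 10 contractile genes was 0.88 without it and 0.89 over all libraries. Mural cell markers, of the pericytes and vessel smooth muscle cells that also express these genes, summed to 226 to 282 CPM in shPostn and 224 to 256 CPM in shSCR. Of these 8 genes 0 of 4 tested were called by edgeR (10.1% of all genes) and 0 by limma-voom (10.2%). DESeq2 called 2 (15.4% of all genes), and 2 had an unadjusted edgeR p under 0.05 (27.0%). Cspg4 held the largest part of that sum in every library, at 203 ± 50.3 CPM in shPostn and 203 ± 13.2 CPM in shSCR (SD, n = 3 each), while Kcnj8 had 0 counts in shPostn and Higd1b 0 counts in shPostn, with at most 0.391 and 0.0508 CPM in shSCR. Mcam measured 44.1, 22.7 and 63.7 CPM in shPostn, against 18.4, 16.9 and 16.5 CPM in shSCR, and Notch3 1.23, 2.68 and 6.04 CPM in shPostn, against 14.5, 34.9 and 21.4 CPM in shSCR. Endothelial markers summed to 1.64 to 6.99 CPM in shPostn and 2.85 to 4.77 CPM in shSCR, and skeletal muscle markers to at most 1.90 CPM in shPostn and 1.47 CPM in shSCR. The part of other cells in these results was not tested.

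**Figure D5:**
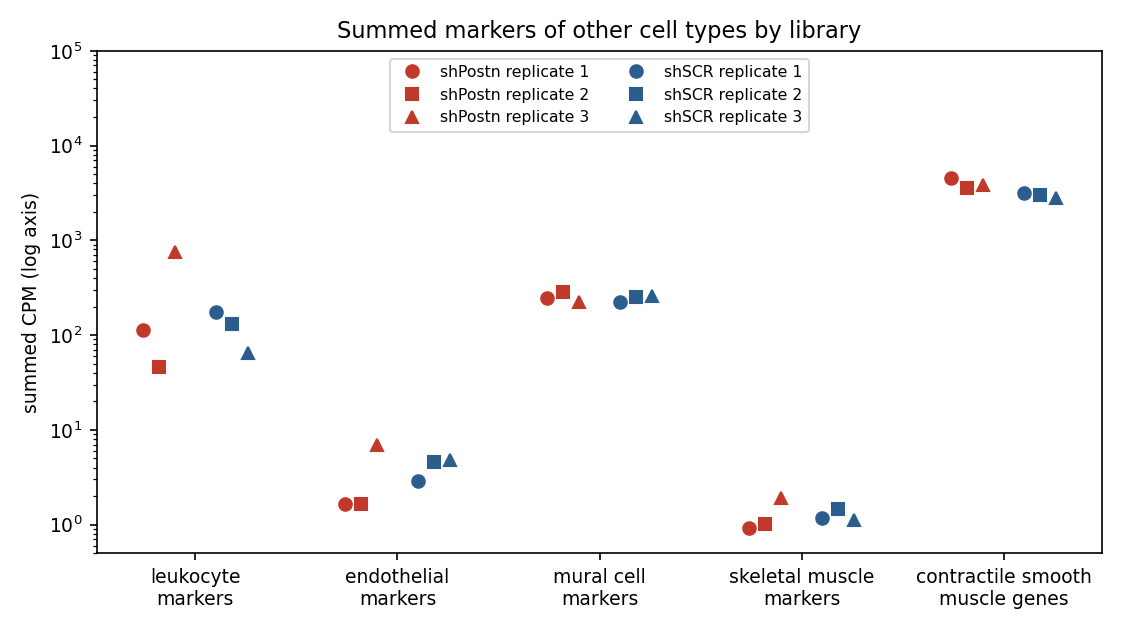
Summed CPM (log axis) of marker lists of other cell types and of the 10 contractile genes in each library; shPostn libraries are red and left of the blue shSCR libraries, and marker shapes give the replicate. Leukocyte markers reach 754 CPM in shPostn replicate 3, while mural cell markers lie between 224 and 282 CPM in all 6 libraries.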

How the data were processed

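The authors deposited estimated counts per Ensembl gene for 6 libraries, for which the submitters' processing notes name Salmon and mm10; the sources used here give no version, annotation or strand setting. All values were whole numbers, with 19603269 to 20376554 counts per library. Symbols, positions and merged exon lengths came from GENCODE M21 on GRCm38, which named 35422 of 35727 genes; promoters came from RefSeq on GRCm38.p6.

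Genes passing filterByExpr (minimum count 10) were fitted with TMM factors and a robust quasi-likelihood F-test in edgeR 4.0.16 (R 4.3.3), shPostn against shSCR without covariates, with Benjamini-Hochberg adjustment over 12819 genes and a threshold of 0.05. SE is the log2 fold change over the square root of F. The test was checked on simulated counts, drawn independently for each library and with the same spread in both groups. That check does not cover technical replicates or a spread that differs between groups. The alternatives were relative log expression or upper quartile factors, no count filter, DESeq2 1.42.0, limma-voom (limma 3.58.1), a replicate block and each library left out. Count ratios have 95% conditional Clopper-Pearson intervals.

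The genes and lists were chosen with earlier results of these data known. Besides all 10 contractile genes and Postn, the rule named per list up to 2 called genes in each direction by size of change (failing that, the 2 most abundant), and the 3 closest profiles with a mean of at least 1 CPM; Vcl, Srf, Mylk, Cald1, Myocd and single markers were added once values were known. Samples of the same replicate number were not treated as paired in the reported fit.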

Additional observations from a re-analysis of the deposited data

How the results depend on the processing

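No contractile gene changed direction under any of the 12 alternatives run. Of the 10 genes 5 passed in the reported fit (10.1% of all genes). Also 5 passed with relative log expression factors (10.3% of all genes) or upper quartile factors (10.4%). The number was 3 without a count filter (Cnn2, Tpm2 and Des, with 6.62% of all genes called). It was 4 with limma-voom (Cnn2, Myl9, Tpm2 and Des, with 10.2% of all genes called). With DESeq2 it was 8 (all of the 10 but Tpm1 and Tpm4, with 15.4% of all genes called). With 1 library left out it ranged from 0 to 6. The lowest, 0, came without shSCR replicate 2, where edgeR gave 8 an unadjusted p under 0.05 (18.8% of all genes); Tpm2 alone passed without shSCR replicate 1 and Des alone without shSCR replicate 3. The highest, 6, came without shPostn replicate 2, where Actg2 and Cnn1 passed and Des did not. Over all genes 1300 were called in the reported fit, 1973 with DESeq2, and between 307 (without shSCR replicate 2) and 2220 (without shPostn replicate 3) with 1 library left out; it was 637, 429 and 404 without shPostn replicate 2, shSCR replicate 1 and shSCR replicate 3. With the replicate number as a block 2 contractile genes (Cnn2 and Tpm2) and 735 genes in all were called. Deviations from the group mean correlated at −0.07, −0.13 and −0.44 between libraries of the same number. With 3 libraries per group such correlations depend on each other, so they cannot show whether samples were paired. Fits without 1 library have fewer samples, yet some of them called more genes than the reported fit. Why the calls differed was not tested for any setting. Depth limits Des, with 4 to 24 counts per shPostn library.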
